A study of Mus musculus with 8 samples.

Results

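The genes described here are the 3 D-type cyclins Ccnd1, Ccnd2 and Ccnd3, their partner kinases Cdk4 and Cdk6, the CDK inhibitors Cdkn1a (p21), Cdkn1b (p27) and Cdkn2c (p18), the retinoblastoma gene Rb1, and Myc. They are 10 of the 37018 genes and transcripts on the arrays and were taken by name. The probe shown for each gene was chosen by its mean signal over all arrays, the brightest being kept, which used neither the genotype nor the LPS comparison. Earlier results of these data were known when the genes were picked. All 10 passed the filter on dim genes.

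The RNA came from peritoneal macrophages of 2 genotypes on the C57BL/6 background, namely LysMCre-fur(fl/fl) mice (KO) and WT littermates. In the KO mice both fur alleles, which encode the proprotein convertase FURIN, are floxed, and Cre is expressed from the Lyz2 locus, which is active in myeloid cells. Whether the WT littermates carried floxed alleles or Cre, the age of the mice and any pooling of animals are not given in the sources used here. Peritoneal cells were cultured for 24 h, washed, kept in fresh medium for 1 h, and then left unstimulated or stimulated with LPS, a ligand of TLR4, at 1 μg/ml for 1, 4 or 24 h. Each time point had 2 arrays of 2 colours, with KO and WT RNA of that time point on the same array, so that 8 arrays gave 16 channels. KO RNA was in Cy5 on replicate 1 and in Cy3 on replicate 2. Replicate number and dye orientation therefore cannot be told apart. The growth protocol in the labels gives 4 h of LPS for all samples, whereas the sample titles give the times used here. The labels and the study's methods call the arrays biological replicates and the study speaks of independent experiments. Whether these used separate animals is not given in the sources used here, and the p-values measure the spread between these arrays.

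D-type cyclins bind CDK4 or CDK6 early in the G1 phase, and the active kinases phosphorylate RB1, which then releases E2F transcription factors to switch on genes of DNA synthesis. CDKN2C binds CDK4 and CDK6 directly and keeps cyclin D away, whereas CDKN1A and CDKN1B bind cyclin–CDK complexes, and Cdkn1a is a classical target of p53. MYC, with its partner MAX, drives genes of ribosome assembly and metabolism, and in macrophages growth factors such as CSF1 induce both D cyclins and MYC, while LPS is known to block the proliferation that CSF1 drives.

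In each channel 43.77 to 51.28% of gene spots were well above background, and no member was saturated. Furin, the targeted gene, was lower in KO on 6 of 8 arrays by log2 -0.55 to -0.85, but not at 4 h LPS, where the log2 KO/WT ratios were 0.0012 and 0.33, and its mean ratio was -0.44 (limma adjusted p = 0.0220). Which part of Furin its probe covers relative to the floxed part is not given in the sources used here, so this is a limited check of the labels. Lyz2, the gene that carries Cre, was lower in KO on all 8 arrays by log2 -0.75 to -1.85. All 7 measured macrophage markers were well above background in every group. So were all 8 B cell markers and all 7 mast cell markers, and 7 of 9 markers of T and NK cells. All arrays shared 1 slide, with the unstimulated and 1 h arrays in one column of it and the 4 and 24 h arrays in the other. Time and slide column therefore cannot be told apart where 4 or 24 h is compared with unstimulated or 1 h. Comparisons of 1 h with unstimulated and of 24 with 4 h lay within a column.

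Promoter sequences were at hand in RefSeq (GRCm38.p6) for 6 of the 10 members, with 9 windows of 250 bases before an annotated start, and those of the members with the clearest motif matches or responses are shown 5′ to 3′ on the strand of the gene. Capitals mark matches, on either strand, to the E-box CACGTG that MYC–MAX and related dimers bind, to the GC box GGGCGG, or, in the first Cdkn1a window, to a p53 response element.
Cdk4, chr10:127063285-127063534, plus strand: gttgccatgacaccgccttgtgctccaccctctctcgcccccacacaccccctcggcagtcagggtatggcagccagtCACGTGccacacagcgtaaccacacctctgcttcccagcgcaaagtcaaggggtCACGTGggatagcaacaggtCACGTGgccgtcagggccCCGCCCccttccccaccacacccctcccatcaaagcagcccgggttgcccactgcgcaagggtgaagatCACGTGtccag
Cdkn1a upstream start, chr17:29090729-29090978, plus strand: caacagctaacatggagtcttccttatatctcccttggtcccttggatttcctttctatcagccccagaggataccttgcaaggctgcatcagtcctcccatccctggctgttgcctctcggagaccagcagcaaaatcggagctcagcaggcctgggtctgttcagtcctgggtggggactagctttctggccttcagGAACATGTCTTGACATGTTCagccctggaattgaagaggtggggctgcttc
Cdkn1a downstream start, chr17:29093519-29093768, plus strand: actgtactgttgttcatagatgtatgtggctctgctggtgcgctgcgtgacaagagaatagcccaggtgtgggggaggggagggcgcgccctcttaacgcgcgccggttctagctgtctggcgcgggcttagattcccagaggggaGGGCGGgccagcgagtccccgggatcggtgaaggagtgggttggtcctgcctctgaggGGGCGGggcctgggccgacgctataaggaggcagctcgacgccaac
Cdkn1b, chr6:134920151-134920400, plus strand: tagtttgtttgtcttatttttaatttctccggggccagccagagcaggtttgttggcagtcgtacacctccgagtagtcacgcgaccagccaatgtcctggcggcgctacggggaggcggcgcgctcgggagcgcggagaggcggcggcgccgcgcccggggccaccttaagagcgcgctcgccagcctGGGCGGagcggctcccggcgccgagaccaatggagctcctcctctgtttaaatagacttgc
Cdkn2c, chr4:109666757-109667006, minus strand: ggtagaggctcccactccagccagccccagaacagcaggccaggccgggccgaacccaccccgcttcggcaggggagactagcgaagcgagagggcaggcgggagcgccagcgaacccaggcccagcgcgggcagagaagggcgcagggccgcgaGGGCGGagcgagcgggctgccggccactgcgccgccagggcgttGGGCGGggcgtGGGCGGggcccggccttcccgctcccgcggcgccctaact

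The Cdk4 window held 4 E-boxes, a sequence present in 6.02% of 32851 RefSeq windows of the same length, and 1 GC box. The p53 element, searched as 2 half-sites with no base between them and at most 1 mismatch, lay 51 bases before the upstream Cdkn1a start and occurred in 0.0761% of windows. This search was added after the sequence had been seen. GC boxes, found in 32.7% of all windows, numbered 2 at the downstream Cdkn1a start, 1 at Cdkn1b and 3 in the Cdkn2c window shown, while the other Cdkn2c window held no match to any motif. The Cdk6 window held 1 E-box, 1 E2F motif (TTTNNCGC, in 4.28% of windows) and 1 TATA box (TATAAA, in 12.4%), and the 2 Ccnd3 windows held GC boxes alone. The AP-1 motif TGANTCA, in 6.75% of windows, was found in no window of a member. None of these matches overlapped another. A match describes the letters only, and no start was assigned to the transcript that a probe measures.

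**Figure D1:**
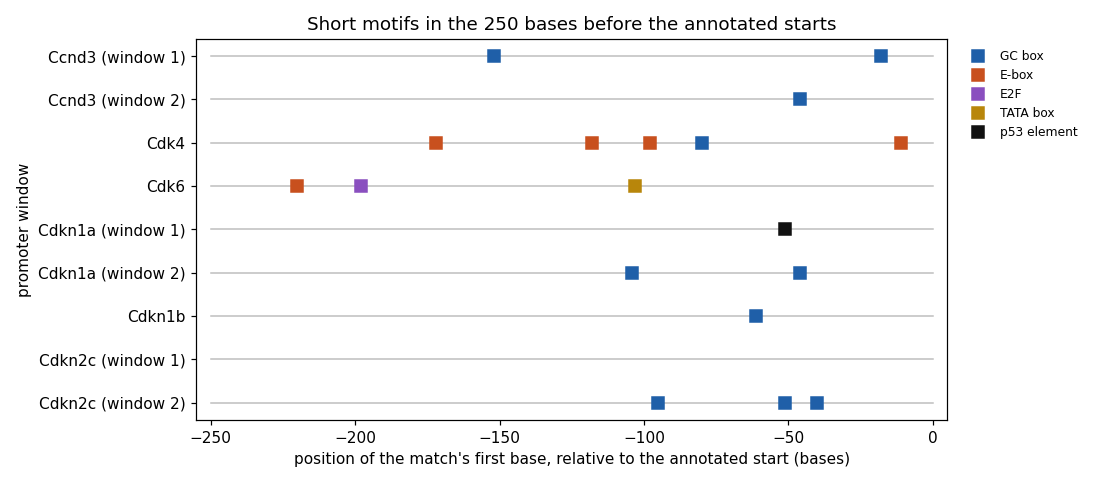
Positions of the motif matches in the 9 promoter windows of 6 members, as bases before the annotated start on the horizontal axis, with 1 line for each window and a symbol for each motif. The 4 E-boxes of Cdk4 and the p53 element of the upstream Cdkn1a window, 51 bases before its start, can be seen.

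Every member except Cdk4 changed at some time after LPS in WT macrophages. In WT macrophages, 3 of the 10 members were higher and 0 lower at 1 h than in unstimulated cells (limma, adjusted p under 0.05), where 3.38% of all genes tested were higher and 5.12% lower. At 4 h, 4 members were higher and 4 lower (15.5% and 19.3% of all genes), and at 24 h 3 were higher and 3 lower (13.5% and 17.0%). In KO macrophages 3 were higher and 2 lower at 1 h (3.09% and 4.35%), 3 and 4 at 4 h (16.2% and 19.7%), and 2 and 4 at 24 h (12.7% and 15.9%). The members' median log2 changes in WT after 1, 4 and 24 h were 0.010, -0.21 and 0.082, against -0.018, -9e-04 and -0.016 over all genes tested. Ccnd2, Cdkn1a and Myc made up the members called higher at 1 h in both genotypes. All changes from unstimulated cells share the same unstimulated arrays. No separate unstimulated cells were measured for each LPS time, so LPS and added time in culture cannot be told apart in these changes. Without scaling between the arrays (loess within arrays alone), 27.8% of the genes called at 4 h in WT and 27.9% in KO were higher, against 44.5% and 45.1%, and the median change of all genes from 1 to 4 h moved by log2 -0.16 in both genotypes. The splits of later contrasts moved the opposite way, with 79.8% of calls higher in WT instead of 50.8% between 24 and 4 h, and 60.1% instead of 48.2% between 24 and 1 h. With the software's processed signals the median change of all genes in WT moved by -0.10 at 4 h and -0.11 at 24 h. No member that passed the test changed direction with any of these scalings. With the replicate number and dye as a block, 6 members were called at 1 h in WT (12.1% of all genes), with Ccnd3, Cdkn1b and Cdkn2c added as lower. In KO the count of 5 at 1 h dropped to 3 with the software's processed signals, without unstimulated replicate 1 or without 1 h replicate 2. In RNA from a mixed culture, fewer cells of a type and less RNA per cell cannot be told apart.

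**Figure D2:**
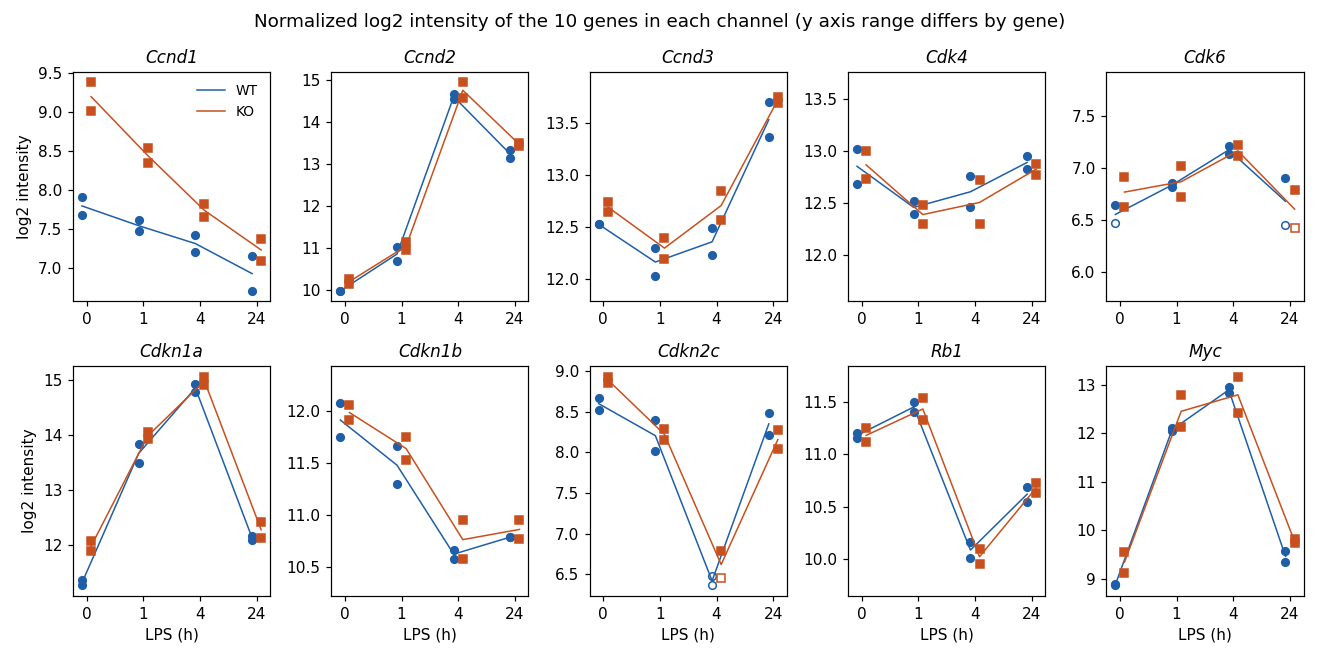
Normalized log2 intensity of the 10 members on each array against hours of LPS, with circles for WT, squares for KO, open symbols for spots not well above background and lines through the means of the 2 arrays. The vertical range differs between genes, and levels of different probes are not comparable. Ccnd2, Cdkn1a and Myc were highest at 4 h, Cdkn2c and Rb1 were lowest at 4 h, and Ccnd1 was higher in KO at rest.

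**Figure D3:**
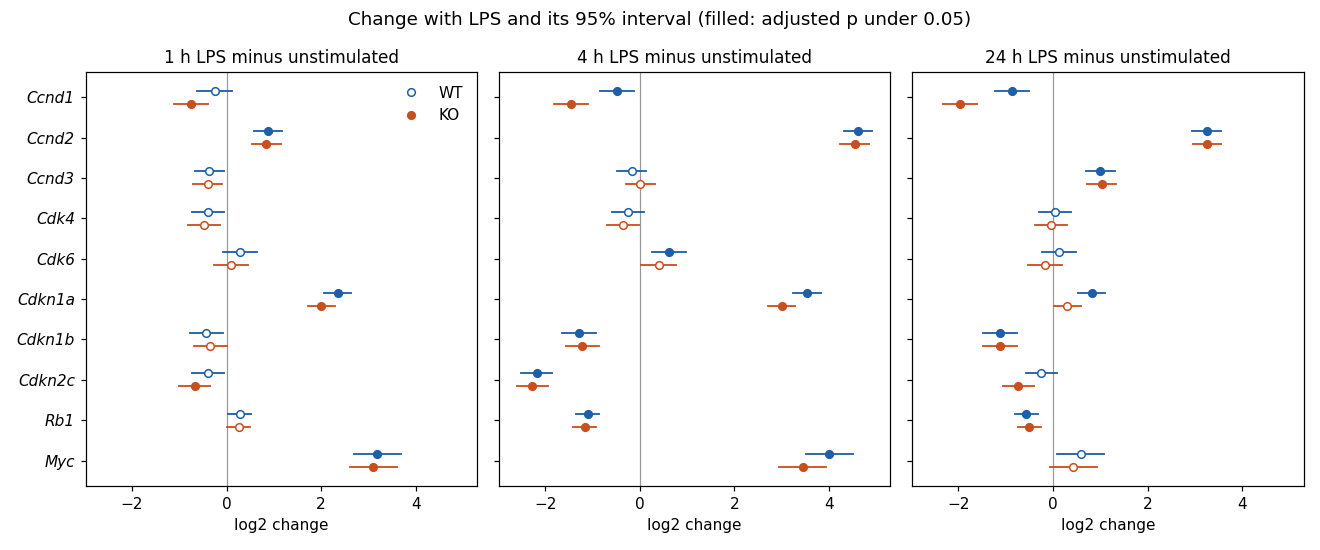
Fitted log2 change of each member from unstimulated cells after 1, 4 and 24 h of LPS in WT and KO, with 95% confidence intervals from the fit and filled symbols for an adjusted p under 0.05. Ccnd2 rose by 4.61 at 4 h in WT and Cdkn2c was lowest then, its WT point at 4 h resting on spots not well above background.

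Ccnd1, cyclin D1, which couples growth factor signals to CDK4 and CDK6, was higher in unstimulated KO than in unstimulated WT macrophages and was lower at each later LPS time. Its log2 intensities at rest were 7.91 and 7.68 in WT and 9.38 and 9.02 in KO, for replicates 1 and 2. After 1 h they were 7.61 and 7.47 in WT and 8.54 and 8.34 in KO, and after 4 h 7.42 and 7.21 in WT and 7.82 and 7.66 in KO. After 24 h they were 7.15 and 6.71 in WT and 7.09 and 7.37 in KO. The genotypes did not overlap at 0, 1 or 4 h and overlapped at 24 h.

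The log2 KO/WT ratio of Ccnd1 was 1.40 at rest (SE 0.15, 2.64-fold), 0.90 at 1 h, 0.43 at 4 h and 0.30 at 24 h. With processed signals it was 0.87 at 4 h and 0.76 at 24 h, and leaving out one or the other 24 h array gave -0.058 or 0.66 at 24 h. Its mean over the 4 time points was 0.76 (SE 0.075, adjusted p = 0.0121, limma), and KO was higher on 7 of 8 arrays. This was the 1 call among the 10 members for the mean, where 0.566% of all genes tested were called. The mean was 1.17 with processed signals (0.0430). The call was lost without unstimulated replicate 1 (adjusted p = 0.0754) and without 4 h replicate 2 (0.0730). At single time points 0 members were called, and for Ccnd1 the adjusted p was 0.0586 at rest and 0.347 at 1 h. It was 0.00151 and 0.0207 with the replicate block, and at rest it was 0.0227 without either of the 24 h arrays. The difference at rest was already known when Ccnd1 was chosen, and it is given as a description.

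Some cell type markers also differed between the genotypes, and their part in the Ccnd1 difference was not tested. Among the 7 measured macrophage markers, Lyz2 and Csf1r, the CSF1 receptor, were lower in KO over the time points (Csf1r by log2 -0.40, adjusted p = 0.0182). The sum of the 7 linear intensities at rest was 531647 to 628184 in WT and 447764 to 451493 in KO. Without Lyz2, the sum of the other 6 overlapped between the genotypes at rest, at 318262 to 347859 in WT and 311389 to 320508 in KO. Icam2 was the 1 of 6 markers of large peritoneal macrophages that was higher in KO (0.34, adjusted p = 0.0268). With the replicate block 4 of the 7 and 3 of the 6 were called for the mean, beside 5.99% of all genes. The large peritoneal macrophage sum at rest was 64627 to 71866 in WT and 74809 to 85190 in KO. Of the 8 B cell, 9 T and NK cell and 7 mast cell markers, 0 were called for the mean ratio. With the replicate block 1, 2 and 5 of them were called, again beside 5.99% of all genes. The medians of the mean KO/WT ratios of these lists were 0.12, 0.17 and 0.47. Their sums at rest in WT and KO overlapped. The sum over 10 markers of mesothelial cells and fibroblasts was 1127 to 1151 in WT and 1157 to 1348 in KO, with 4 of the 10 not well above background on either array of a genotype.

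Within a genotype, Ccnd1 was lower after LPS by log2 -0.25 at 1 h, -0.48 at 4 h and -0.87 at 24 h in WT, with adjusted p of 0.524, 0.0399 and 0.00113. The WT call at 4 h was lost under 6 of the other settings, among them Aquantile normalization (0.0814) and the fits without unstimulated replicate 1 (0.215), without either 1 h array (0.0562) or without either 4 h array (0.0582 and 0.240). With processed signals the WT changes at 4 and 24 h were -0.88 and -1.59, and with loess alone the 4 h change was -0.79, all called. In KO the changes were -0.76, -1.46 and -1.97, with adjusted p of 0.0133, 8.42e-06 and 7.93e-07. The KO call at 1 h was lost without unstimulated replicate 1 (0.189), without 1 h replicate 2 (0.151) and with processed signals (0.0548). From highest to lowest, both genotypes had the order unstimulated, 1 h, 4 h and 24 h. In WT no neighbours in that order passed the test, although the pair 24 and 4 h (-0.39) was called with the replicate block (0.0422) and without 24 h replicate 1 (0.0240). In KO every neighbouring pair passed, but the pair 4 and 1 h (-0.70, adjusted p = 0.00497) lost its call without 1 h replicate 1 (0.0631). The KO pair 24 and 4 h (-0.51, 0.0351) lost its call with Aquantile (-0.46, 0.0748) and with loess alone (-0.22, 0.517). The call was also lost without either 1 h array (-0.51), either 4 h array (-0.43 and -0.59) or 24 h replicate 1 (-0.37). With processed signals the change of this pair was -0.83 and still called (0.0355). Between 24 and 1 h, WT changed by -0.61 (0.0136), a call lost without 1 h replicate 1 (-0.55) or 24 h replicate 2 (-0.39). With processed signals this change was -1.15 and still called (0.00767).

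Ccnd2, cyclin D2, had the largest fitted change of the members at 4 and 24 h of LPS. The change of Cdkn2c at 4 h in WT is known only as a bound. At 1 h Ccnd2 rose less than Myc and Cdkn1a. Its log2 intensity was 9.98 on both unstimulated arrays in WT and 10.14 and 10.27 in KO. It was 10.68 and 11.03 in WT and 10.95 and 11.14 in KO at 1 h, and 14.65 and 14.53 in WT and 14.56 and 14.93 in KO at 4 h. At 24 h it was 13.32 and 13.13 in WT and 13.48 and 13.43 in KO. No LPS time overlapped another in either genotype, while KO and WT overlapped at 1 and 4 h.

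Compared with unstimulated cells, Ccnd2 was 1.84-fold higher in WT at 1 h (log2 0.88, SE 0.14, adjusted p = 0.00110), 24.4-fold at 4 h (4.61, 3.29e-11) and 9.47-fold at 24 h (3.24, 1.24e-09). In KO the log2 changes were 0.84, 4.54 and 3.25, all past the threshold. The order was unstimulated, 1 h, 24 h and 4 h in both genotypes, and each neighbouring pair differed, with 24 h below 4 h by log2 -1.37 in WT and -1.29 in KO. The mean KO/WT ratio was 0.20 (95% interval 0.056 to 0.34, adjusted p = 0.252, higher in KO on 7 of 8 arrays).

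Ccnd3, cyclin D3, rose only between 4 and 24 h among the steps tested in WT. In WT its log2 intensity was 12.53 on both unstimulated arrays, 12.30 and 12.03 at 1 h, 12.49 and 12.23 at 4 h, then 13.70 and 13.36 at 24 h. In KO it was 12.74 and 12.64 at rest, 12.40 and 12.20 at 1 h, 12.85 and 12.56 at 4 h, then 13.69 and 13.75 at 24 h. The 24 h values lay above those of every other time in both genotypes.

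At 24 h Ccnd3 was 2.00-fold higher than at rest in WT (log2 1.00, SE 0.14, adjusted p = 7.55e-05) and 2.04-fold in KO (1.03, 6.54e-05). Its second probe gave 1.30 in WT and 1.34 in KO. At 1 h it was -0.36 in WT and -0.39 in KO (adjusted p = 0.171 and 0.132), which were called with the replicate block (0.0449 and 0.0300). In WT the order was 1 h, 4 h, unstimulated and 24 h, and only the last pair differed. In KO 4 h was higher than 1 h by 0.41 (adjusted p = 0.0412), and this call was lost without either unstimulated array (0.0655), without 1 h replicate 2 (0.240), without 4 h replicate 1 (0.290) and with loess alone (0.0842). The mean KO/WT ratio was 0.21 (adjusted p = 0.159), and 0.0315 with the block, with KO above WT on 7 of 8 arrays.

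Cdk4, the kinase that D cyclins activate in most cell types, stayed within a narrow range. Its log2 intensities spanned 12.40 to 13.02 in WT and 12.29 to 13.00 in KO over all times. At rest they were 13.02 and 12.68 in WT and 13.00 and 12.73 in KO. Changes from unstimulated cells were -0.39, -0.24 and 0.037 in WT and -0.48, -0.36 and -0.041 in KO at 1, 4 and 24 h, and none passed the threshold (adjusted p from 0.0908 to 0.912). The KO change was called at 1 h without either 4 h array (0.0496), and at 4 h with processed signals (0.0481) and without 4 h replicate 2 (0.0156). Between 24 and 4 h a call came with loess alone (0.00286 in WT and 0.00174 in KO) and in KO without 4 h replicate 2 (0.0276). The 95% intervals at 1 h were -0.73 to -0.060 in WT and -0.81 to -0.14 in KO. The difference between 24 and 1 h was 0.43 in WT (adjusted p = 0.0546) and 0.44 in KO (0.0529), and it was called under 7 settings in each genotype, among them the replicate block (0.0497 and 0.0483) and loess alone (8.53e-04 and 8.57e-04). The KO/WT ratio lay between -0.17 and 0.049 on all arrays, with a mean of -0.055 (95% interval -0.15 to 0.044). The other 2 Cdk4 probes gave WT changes at 24 h of 0.046 and 0.31.

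Cdk6, the second cyclin D partner kinase, had a probe close to the background. In WT its log2 intensities were 6.64 and 6.47 at rest, 6.86 and 6.81 at 1 h, 7.21 and 7.13 at 4 h, then 6.46 and 6.90 at 24 h. In KO they were 6.91 and 6.62, 7.02 and 6.72, 7.21 and 7.11, and 6.78 and 6.42. The second WT value at rest, the first WT value at 24 h and the second KO value at 24 h were not well above background.

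Cdk6 was 1.54-fold higher at 4 h than at rest in WT (log2 0.62, SE 0.17, adjusted p = 0.00960), with 1 of the 2 spots at rest well above background. The call was lost without unstimulated replicate 2 (0.0798), without 4 h replicate 1 (0.0682) and with loess alone (0.0909). In KO the change was 0.40 (adjusted p = 0.0876), called with the block (0.0289) and without either 24 h array (0.0327). At 24 h it was below 4 h by -0.49 in WT (0.0398) and -0.56 in KO (0.0202), again with 1 of the 2 spots at 24 h well above background in each genotype. Each of these calls was lost with loess alone (-0.33 in WT, 0.251, and -0.40 in KO, 0.133). Each was also lost without either 4 h array (-0.46 and -0.53 in WT, -0.51 and -0.61 in KO). Without 24 h replicate 1 the WT change was -0.27, and without 24 h replicate 2 the KO change was -0.38, neither of them called. The order was unstimulated, 24 h, 1 h and 4 h in WT and 24 h, unstimulated, 1 h and 4 h in KO, with no neighbouring pair past the threshold.

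Cdkn1a, p21, which inhibits cyclin–CDK complexes and is induced by p53 and by stress, rose within 1 h of LPS. Its log2 intensities in WT were 11.27 and 11.37 at rest, 13.84 and 13.50 at 1 h, 14.92 and 14.78 at 4 h, then 12.17 and 12.10 at 24 h. In KO they were 12.08 and 11.89 at rest, 13.92 and 14.05 at 1 h, 15.06 and 14.90 at 4 h, then 12.43 and 12.14 at 24 h. The time points did not overlap in either genotype, and at rest the KO values lay above the WT values.

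Cdkn1a was 5.09-fold higher in WT at 1 h (log2 2.35, SE 0.13, adjusted p = 6.94e-08), 11.6-fold at 4 h (3.53, 2.02e-10) and 1.76-fold at 24 h (0.81, 2.90e-04). In KO the changes were 2.00, 3.00 and 0.30, the last with an adjusted p of 0.124, which was 0.0221 with loess alone. The order was unstimulated, 24 h, 1 h and 4 h in both genotypes, and every neighbouring pair differed except unstimulated and 24 h in KO. A second, dim Cdkn1a probe went the other way, with WT changes of -0.086, -0.36 and -0.35. With the mean over both probes the WT changes at 1 and 4 h were 1.13 and 1.59, both still called, and that at 24 h was 0.23 (adjusted p = 0.167). In KO the mean over both probes gave 0.97 and 1.33 at 1 and 4 h. The bright probe was printed at 10 spots, whose log2 ratios had an SD of 0.039 to 0.065 on an array. KO was above WT on 8 of 8 arrays, by log2 0.040 to 0.80. The ratio was 0.66 at rest (SE 0.13, adjusted p = 0.209, with block 0.0314) and 0.31 over the time points (0.0841, with block 0.0125). The dim probe had KO/WT ratios of -0.0015 to 0.081, and with the mean over both probes the ratio was 0.33 at rest and 0.17 over the time points.

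Cdkn1b, p27, which restrains cyclin E and A kinases in resting cells, fell after LPS. In WT its log2 intensities were 11.75 and 12.08 at rest, 11.30 and 11.66 at 1 h, 10.58 and 10.67 at 4 h, and 10.79 on both arrays at 24 h. In KO they were 12.05 and 11.91, 11.74 and 11.53, 10.96 and 10.58, and 10.96 and 10.77. All values at 4 and 24 h were below all values at rest and 1 h in both genotypes.

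Cdkn1b was 2.44-fold lower at 4 h in WT (log2 -1.29, SE 0.16, adjusted p = 1.86e-05) and 2.17-fold lower at 24 h (-1.12, 9.46e-05). In KO the changes were -1.22 and -1.12. At 1 h they were -0.43 in WT and -0.35 in KO (adjusted p = 0.147 and 0.287), and the WT change was called with the block (0.0158). From lowest to highest the order was 4 h, 24 h, 1 h and unstimulated in both genotypes. Only 24 and 1 h differed among neighbours (-0.69 in WT, adjusted p = 0.00509, and -0.77 in KO, 0.00221). With loess alone this pair was not called (0.152 and 0.0813) and 24 h was above 4 h (0.0105 and 0.0194), and without 1 h replicate 2 the WT pair was at 0.0733. The KO/WT ratio was above 0 on all 4 arrays of replicate 1 and below 0 on all 4 of replicate 2.

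Cdkn2c, p18, an INK4 inhibitor of CDK4 and CDK6, dropped at 4 h and was higher again at 24 h. In WT its log2 intensities were 8.67 and 8.53 at rest, 8.40 and 8.01 at 1 h, 6.48 and 6.36 at 4 h, then 8.48 and 8.22 at 24 h. In KO they were 8.93 and 8.86, 8.29 and 8.15, 6.46 and 6.78, and 8.04 and 8.27. The 4 h values were the lowest in both genotypes, and both WT values and the first KO value there were not well above background.

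Because the WT spots at 4 h give only a bound, Cdkn2c in WT was at least 4.32-fold higher at rest, 3.29-fold higher at 1 h and 3.63-fold higher at 24 h than at 4 h, set against the lowest signal well above background on each array (adjusted p of the fit 6.31e-08, 7.37e-07 and 4.34e-07). In KO, where 1 of the 2 spots at 4 h was well above background, the fitted change was -2.27 (4.35e-08). With processed signals the fitted 4 h changes were larger, -4.09 in WT and -3.99 in KO. At 24 h the change from rest was -0.25 in WT (95% interval -0.58 to 0.082, adjusted p = 0.284) and -0.74 in KO (0.00197). At 1 h it was -0.39 in WT (0.168, with block 0.0489) and -0.67 in KO (0.0149). The KO call at 1 h was lost with processed signals (0.0548), without either unstimulated array (0.136 and 0.0695) and without 1 h replicate 2 (0.100). The order from lowest was 4 h, 1 h, 24 h and unstimulated in WT and 4 h, 24 h, 1 h and unstimulated in KO, and 24 and 1 h did not differ past the threshold in either (adjusted p = 0.591 and 0.850).

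Rb1, the pocket protein that holds E2F factors inactive, was also lowest at 4 h. In WT its log2 intensities were 11.15 and 11.21 at rest, 11.50 and 11.41 at 1 h, 10.16 and 10.01 at 4 h, then 10.69 and 10.55 at 24 h. In KO they were 11.12 and 11.25, 11.33 and 11.54, 9.94 and 10.09, and 10.63 and 10.73. No time point overlapped another in either genotype.

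Rb1 was 2.14-fold lower at 4 h in WT (log2 -1.10, SE 0.11, adjusted p = 2.27e-06) and 2.24-fold lower in KO (-1.16, 1.32e-06). At 24 h it was -0.56 in WT (0.00128) and -0.50 in KO (0.00308), and both calls were lost with loess alone (0.0549 and 0.106). At 1 h it was 0.27 in WT and 0.25 in KO (adjusted p = 0.195 and 0.245). The order from lowest was 4 h, 24 h, unstimulated and 1 h in both genotypes, and every pair of neighbours differed except the last. The rise from 4 to 24 h was 0.54 in WT and 0.66 in KO, or 1.08 and 1.22 with loess alone. The KO/WT ratio was below 0 on all 4 arrays of replicate 1 and above 0 on all 4 of replicate 2, with a mean of -0.0053 (95% interval -0.14 to 0.13). The probe was printed at 10 spots, whose log2 ratios had an SD of 0.049 to 0.085.

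Myc, the transcription factor that pairs with MAX at E-boxes, rose within 1 h and came down between 4 and 24 h. In WT its log2 intensities were 8.90 and 8.86 at rest, 12.03 and 12.11 at 1 h, 12.83 and 12.95 at 4 h, then 9.58 and 9.35 at 24 h. In KO they were 9.13 and 9.56 at rest, 12.12 and 12.78 at 1 h, 12.42 and 13.16 at 4 h, then 9.73 and 9.81 at 24 h. The time points did not overlap in WT, and in KO 1 and 4 h did.

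Myc was 9.11-fold higher in WT at 1 h (log2 3.19, SE 0.23, adjusted p = 7.56e-07) and 16.1-fold at 4 h (4.01, 9.49e-09). In KO it was 8.60-fold higher at 1 h and 10.9-fold at 4 h. At 24 h the change was 0.58 in WT (95% interval 0.083 to 1.08, adjusted p = 0.0772) and 0.43 in KO (0.216). With the block these were 0.00383 and 0.0260, and the WT change was also called with processed signals (0.0394) and without either 4 h array (0.0408). The order was unstimulated, 24 h, 1 h and 4 h in both genotypes. From 1 to 4 h the change was 0.82 in WT (0.0145) and 0.34 in KO (0.329), the latter at 0.0462 without 4 h replicate 1. From 4 to 24 h Myc changed by log2 -3.42 in WT and -3.02 in KO, each past the threshold. KO was above WT on 7 of 8 arrays, and the mean ratio was 0.26 (adjusted p = 0.352, with block 0.00667). At rest the ratio was 0.46 (0.813, with block 0.0375).

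Between LPS times, 6 of the 10 members differed between 4 and 1 h in WT (29.6% of all genes) and 7 in KO (31.8%). Between 24 and 4 h, 7 differed in WT (29.7%) and 8 in KO (30.7%). The comparison of 24 with 1 h was added after values had been seen, and 7 members differed in each genotype (27.7% and 27.2%). Ccnd2, Cdk6, Cdkn1a and Myc were lower at 24 h than at 4 h in both genotypes and Ccnd1 in KO, whereas Ccnd3, Cdkn2c and Rb1 were higher.

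Between KO and WT, 0 of 10 members were called at rest, 1, 4 or 24 h, where 0%, 0%, 0.0135% and 0.0244% of all genes were called. At an unadjusted p under 0.05 the fit counted 3, 2, 2 and 0 members at these times, beside 5.78%, 5.48%, 4.30% and 3.43% of all genes. The two-sample test of the methods, unadjusted, counted 2 at rest (4.58% of all genes) and 1 at 1 h (4.75%), with 0 after Benjamini-Hochberg adjustment. With the replicate block, Ccnd1, Cdkn1a and Myc were called at rest (1.06% of all genes) and Ccnd1 at 1 h (0.574%). For the mean over the time points the block called 4 members, these 3 genes and Ccnd3, and 5.99% of all genes. The members' median log2 ratio was 0.22 at rest, 0.15 at 1 h, 0.13 at 4 h and 0.11 at 24 h, against -0.0039 to 0.0037 over all genes tested. All 4 members that were above WT on 7 or 8 arrays besides Ccnd1 (Ccnd2, Ccnd3, Cdkn1a and Myc) had mean ratios of 0.20 to 0.31.

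**Figure D4:**
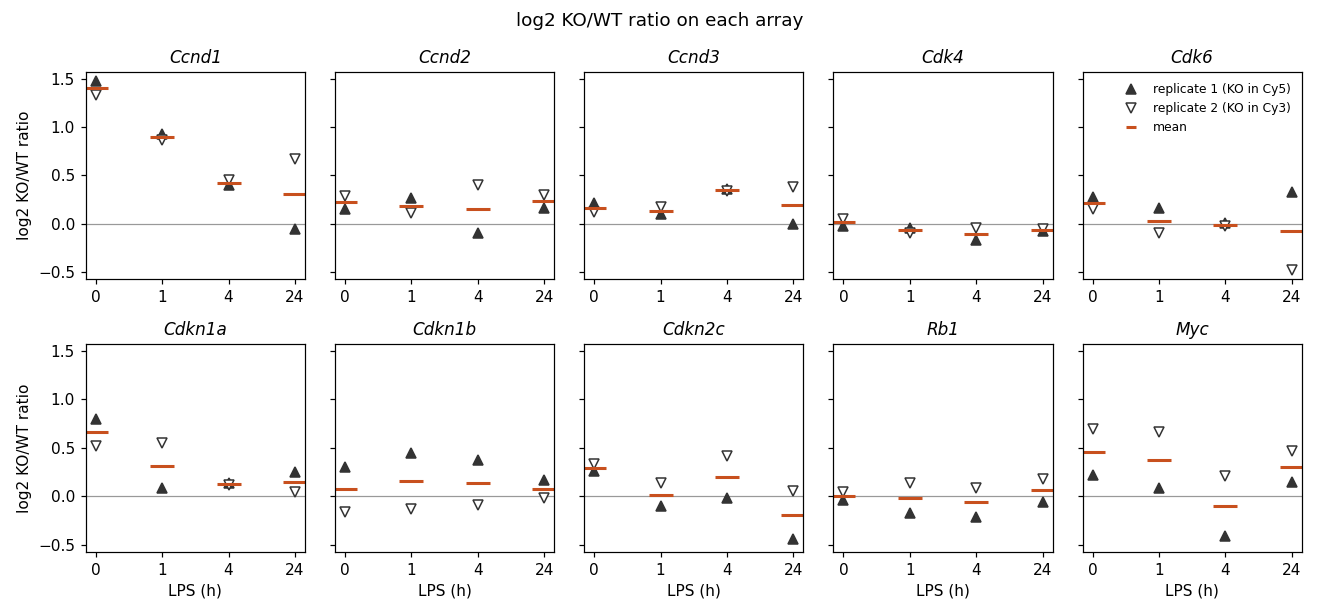
Log2 KO/WT ratio of the 10 members on each of the 8 arrays by hours of LPS, with filled upward triangles for replicate 1 (KO in Cy5), open downward triangles for replicate 2 (KO in Cy3) and a bar at the mean of the 2 arrays. Ccnd1 started at 1.47 and 1.33 at rest and was at -0.058 and 0.66 at 24 h, and the replicates of Cdkn1b and Rb1 lay on opposite sides of 0.

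A difference in the LPS response between the genotypes was called for 0 members and for 0%, 0% and 0% of all genes at 1, 4 and 24 h. Unadjusted, 1, 2 and 3 members had a p under 0.05, as did 1.39%, 2.90% and 3.33% of all genes. For Ccnd1 the KO response was lower than the WT response by log2 -0.50, -0.98 and -1.10 (adjusted p = 1, 1.00 and 0.522), and the 95% interval at 24 h was -1.59 to -0.61. With the block the 24 h value had an adjusted p of 0.0518. For Cdkn1a the differences were -0.34, -0.53 and -0.51, and for Cdkn2c the difference at 24 h was -0.49 (95% interval -0.96 to -0.013). Over the other settings those of Cdkn1a ran from -0.58 to -0.11 at 1 h, from -0.67 to -0.25 at 4 h and from -0.66 to -0.22 at 24 h, and that of Cdkn2c from -0.74 to -0.24. Since the response subtracts the ratio at rest, these values share the unstimulated arrays with the KO/WT ratios above.

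The other genes of the pathway were taken from lists written from general knowledge. Beside their counts, 3.38% of all genes were called higher and 5.12% lower at 1 h in WT. At 4 h these shares were 15.5% and 19.3%, and at 24 h 13.5% and 17.0%. In KO they were 3.09% and 4.35%, 16.2% and 19.7%, and 12.7% and 15.9%. Of 26 measured regulators of G1 and S phase, 14 were higher and 4 lower in WT at 24 h, with a median log2 change of 0.60 (-0.016 over all genes). At 1 h 1 was higher and 1 lower, and at 4 h 9 were higher and 9 lower (median -0.076), or 3 and 13 with loess alone. In KO 14 were higher and 4 lower at 24 h and 9 higher and 10 lower at 4 h. At 1 h 1 was higher and 2 lower in KO, a total of 3 that was 6 with the block (11.8% of all genes). Ccna2, cyclin A2 of S phase and mitosis, rose 15.6-fold at 24 h in WT (log2 3.97), Cks1b, a CDK-binding cofactor, 8.78-fold (3.13), Ccne1, cyclin E1, 8.07-fold (3.01), and Cdc6, which loads the replicative helicase, 7.29-fold (2.87), with 1 of its 2 WT spots at rest well above background. E2f1 was lower at 4 h (-1.98, adjusted p = 3.87e-08) and higher at 24 h (0.64, 0.00176).

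All 15 of 15 proliferation markers were higher at 24 h in both genotypes, with a median log2 change of 3.30 in WT and 3.21 in KO, and 7 were higher at 4 h in WT and 9 in KO (4 and 2 with loess alone). Rrm2, a ribonucleotide reductase subunit, rose 28.5-fold at 24 h (4.83), Birc5 24.4-fold (4.61) and the mitotic kinase Plk1 21.4-fold (4.42). Mki67 was the 1 marker higher at 1 h, by 26.0-fold (4.70), and its second probe gave 4.75. The linear intensities of the 15 markers summed to 25854 to 26405 at rest and 109157 to 122575 at 24 h in WT, and to 28254 to 31214 and 102291 to 131030 in KO.

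Of 12 genes of the MYC network, 3 were higher and 2 lower at 4 h in WT and in KO (median 0.022 and 0.16), and 4 and 3 at 24 h in WT. The shares of all genes were 15.5% and 19.3% at 4 h and 13.5% and 17.0% at 24 h in WT. The MAX partners that oppose MYC moved in both directions. Mxd4 was 8.88-fold lower at 4 h (log2 -3.15) and Mnt 5.75-fold lower (-2.52), while Mxd1 was 7.84-fold higher (2.97) at 4 h and Mxd3 at least 3.46-fold higher at 24 h than at rest, where it was not well above background on either WT array. A second Mxd1 probe gave a smaller change at 4 h, 1.14. Of 20 MYC targets in ribosome assembly and metabolism, 3 were higher at 1 h, 17 at 4 h and 16 at 24 h in WT, with 0, 0 and 1 lower and medians of 0.024, 1.58 and 0.85. In KO 3, 19 and 13 were higher and 0 lower. Wdr43 rose 6.49-fold (2.70), Nop58 5.87-fold (2.55), Nolc1 5.50-fold (2.46) and Polr1b, a subunit of RNA polymerase I, 5.44-fold (2.44) at 4 h in WT. Nop58 was the 1 gene of all these lists called between the genotypes, with a mean KO/WT ratio of 0.42 (adjusted p = 0.0338), which missed the threshold with Aquantile or loess alone (0.0560 each) and with processed signals (0.0550). With the block 6 of the 20 MYC targets were called for the mean, beside 5.99% of all genes.

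Of 16 genes of the p53 list, 4 were higher and 3 lower at 1 h, 8 and 5 at 4 h, then 3 and 6 at 24 h in WT (medians 0.0040, 0.39 and -0.26). In KO the counts were 4 and 3, 8 and 5, and 0 and 6. With loess alone 4 were higher and 5 lower at 4 h in each genotype, and 2 and 3 at 24 h in KO. Pmaip1 (NOXA) rose 9.63-fold (log2 3.27) and Gadd45a 8.86-fold (3.15) at 1 h, as did Mdm2 by 1.31, whereas Sesn1 was 34.7-fold lower (-5.12) and Phlda3 5.43-fold lower (-2.44) at 4 h. Trp53 itself changed by 0.63 at 4 h (adjusted p = 1.54e-04). Of 8 growth arrest genes, 5 were higher and 0 lower at 1 h, 5 and 2 at 4 h, then 2 and 2 at 24 h in WT. The counts in KO were 4 and 0, 5 and 1, and 2 and 3, and with loess alone 2 were higher and 2 lower at 4 h in WT. Gadd45b was 20.3-fold higher at 4 h (4.34), Gadd45g 3.61-fold (1.85), Btg2, also a member of the p53 list, 5.11-fold at 1 h (2.35) and Ccng2 2.45-fold at 1 h (1.29).

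**Figure D5:**
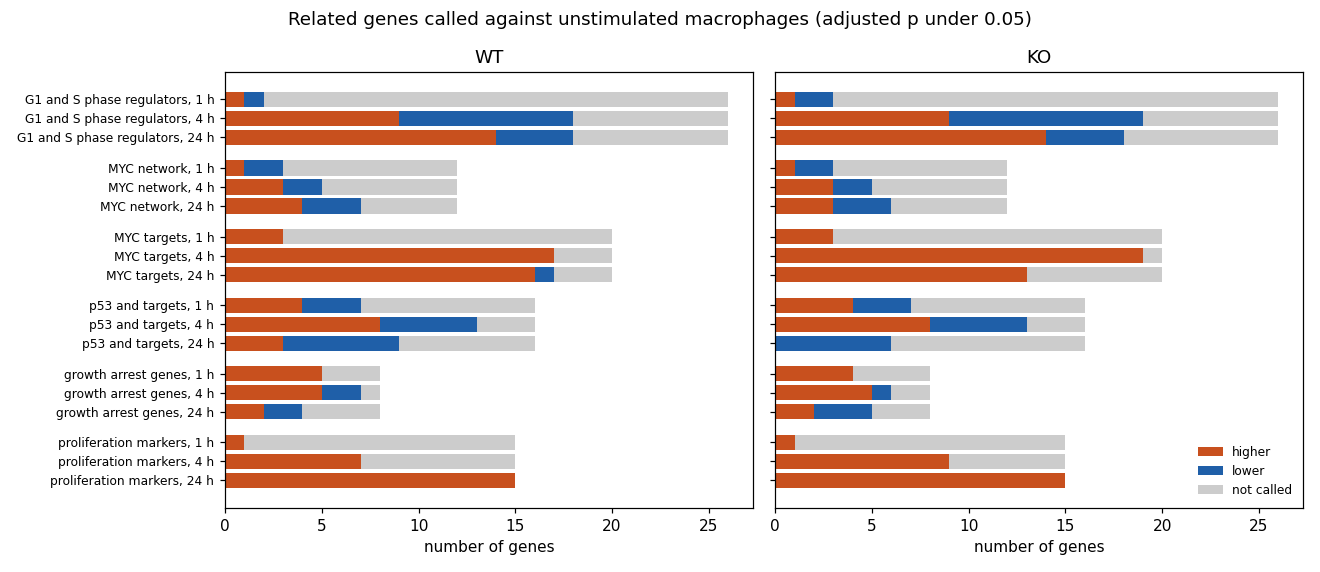
Numbers of genes called higher, called lower and not called at 1, 4 and 24 h of LPS in WT and KO, for the 6 related lists. All 15 proliferation markers were higher at 24 h, and 17 of 20 MYC targets were higher at 4 h in WT.

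Cell type markers changed after LPS too, and their part in the members' changes was not tested. The shares of all genes called at each time are those given with the related lists above. Of 7 general macrophage markers 4 were lower at 24 h in each genotype, and 2 higher in WT and 1 in KO (median log2 -1.32 in WT and -1.34 in KO), and their summed intensity was 531647 to 628184 at rest and 252724 to 269557 at 24 h in WT, and 447764 to 451493 and 160597 to 180762 in KO. At 4 h 4 of them were lower and 1 higher in each genotype, with sums of 360122 to 444100 in WT and 366219 to 391812 in KO. In WT 5 of 6 markers of large peritoneal macrophages were lower at 24 h (median log2 -1.99), and their summed intensity was 64627 to 71866 at rest and 17044 to 20882 at 24 h. In KO 5 were lower, with sums of 74809 to 85190 and 18500 to 21043. Of 8 B cell markers 2 were lower at 24 h in each genotype (1 in WT with loess alone), with sums of 71667 to 93508 at rest and 43369 to 45858 at 24 h in WT, and 79887 to 116412 and 46365 to 52956 in KO. At 4 h the B cell sum was 37495 to 45693 in WT, with 3 markers lower and 2 higher, and 29186 to 43422 in KO, with 5 lower and 2 higher. Of 9 T and NK cell markers 3 were lower at 24 h in WT and 4 in KO, with sums of 14189 to 22741 at rest and 11203 to 12122 at 24 h in WT, and 19474 to 22530 and 12781 to 12836 in KO. Of 7 mast cell markers 6 were lower at 24 h in each genotype, with sums of 8360 to 11685 and 1946 to 3302 in WT and 10175 to 15132 and 3909 to 4008 in KO. The sums of the macrophage, B cell, T and NK cell and mast cell lists were thus lower at 24 h than at rest without overlap in either genotype, whereas that of the neutrophil list was higher. The neutrophil sum was 3100 to 3225 at rest and 22891 to 60243 at 24 h in WT, and 2423 to 2931 and 37690 to 64942 in KO. Only 2 of the 6 markers, S100a8 and Camp, were called higher, and the median log2 change was 0.19 in WT and 0.019 in KO. Ngp, S100a9 and Retnlg were not well above background on any array. The sum of the 10 mesothelial and fibroblast markers was 2408 to 2516 at 24 h in WT and 2962 to 3065 in KO, with 1 and 2 markers higher. The 5 dendritic cell markers summed to 4642 to 7109 at rest and 12786 to 19660 at 4 h in WT, and to 6427 to 7304 and 15635 to 16957 in KO, with 3 higher and 1 lower in each genotype. At 24 h they summed to 3471 to 3476 in WT and 4465 to 4779 in KO, below rest without overlap, with 1 higher and 2 lower in each genotype.

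The genes whose course over the 16 channels was most like that of a member that changed over 2-fold in WT were found by the root mean square difference of log2 intensities centred on each gene's mean, among 12750 genes. They are given as a description. For Ccnd2 the nearest was Mfsd2a (0.22, against a spread of 1.84 for Ccnd2 itself), followed by Gbp6 and Parp14. For Cdkn1a it was Rnd3 (0.18), then Cdk5r1 and Bcl2a1c, and for Myc it was Icam1 (0.37), then Dusp2 and Kdm6b. Cdkn1b was nearest to Pura (0.13), Cdkn2c to Rps6ka1 (0.19), Rb1 to Dock8 (0.11) and Ccnd3 to Itpa (0.16). Rnd3 rose by 2.27, 3.59 and 0.45 at 1, 4 and 24 h in WT as fitted, beside 2.35, 3.53 and 0.81 for Cdkn1a. Dock8 had fitted changes of 0.17, -1.12 and -0.37, beside 0.27, -1.10 and -0.56 for Rb1.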

How the data were processed

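RNA of KO and WT peritoneal macrophages was hybridised to 8 two-colour Agilent arrays. The deposited scanner files hold the intensity of each spot in both dyes, extracted by the authors with Agilent Feature Extraction 10.7.3 (version per the submitters' processing notes), and the authors also deposited normalized log2 ratios of Cy5 to Cy3, made with loess and quantile normalization in limma, which served here only as an alternative. Their columns had medians of 0.0030 to 0.0085. They correlated with the log ratios of Cy5 to Cy3 in the scanner files at r of 0.68 to 0.75, which settled their direction.

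Median signals were corrected with normexp (offset 50), normalized by loess within and quantile between arrays in limma 3.58.1 (R 4.3.3), and outlier spots were left out. Replicate spots were averaged per probe, and each gene was represented by its brightest probe. Of 37018 genes and transcripts, those whose log2 intensity averaged 6 or more entered the tests, 36947 for KO/WT ratios (lmFit, eBayes, 1 coefficient per time point, 4 residual degrees of freedom), and 36927 for LPS changes by separate-channel analysis (statmod 1.5.0, within-spot correlation 0.116 from 5000 genes). P-values were adjusted by Benjamini-Hochberg over all genes, with a threshold of 0.05. Scripts were tested on simulated data.

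Samples were grouped by title. Replicate numbers recur at each time. Their differences in KO/WT ratio correlated across genes between times at r of 0.475 to 0.679 (in single channels 0.214 to 0.565). Replicate number is also the dye orientation, and a dye bias of single genes would recur at each time in the same way. These correlations therefore cannot show whether the numbers pair the arrays. Replicate number entered a replicate block as an alternative only. The other alternatives changed the background correction, normalization, filter, probe choice, test and arrays. Members and lists were chosen with earlier results of these data known. From each list up to 4 genes with the largest WT change past the threshold and the same sign in both replicates were named, with genes called between KO and WT. E2f1, Mdm2, Trp53, S100a8, Camp, Ngp, S100a9 and Retnlg were named, and the contrast of 24 with 1 h added, after values were seen. The number of arrays limits the precision.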

Additional observations from a re-analysis of the deposited data

How the results depend on the processing

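Of 3180 values of single members recomputed under the alternatives, for 200 results, 0 reversed a called direction. Calls were lost in 47 and gained in 48. In 33 a value called in the reported fit moved by over 1.5 times on the log2 scale, of which 11 were with processed signals, 11 with the mean over all probes of a gene (all Cdkn1a) and 8 with loess alone. Of 328 recomputed counts of called members, 315 stayed within 1.5 times the count reported. With the replicate block, which is also a dye term, the count of members called between KO and WT was 3 at rest (0 without it), 1 at 1 h (0) and 4 for the mean over the time points (1), and the count for 1 h LPS in WT was 6 (3). The two-sample test of the methods, unadjusted, counted 2 at rest and 1 at 1 h. With processed signals, 3 members changed in KO at 1 h instead of 5. Leaving out 1 array gave 0 to 1 at rest (1 without either 24 h array), 0 to 1 for the mean (0 without unstimulated replicate 1 or 4 h replicate 2) and 3 to 6 in KO at 1 h, while the counts over all genes ran from 0 to 3, 1 to 159 and 1428 to 2833. Over all genes the block raised the count at rest from 0 to 391, at 1 h from 0 to 212 and for the mean from 209 to 2212, and for 1 h LPS in WT from 3140 to 4477. The cause of these shifts was not tested. With 2 arrays per time point the KO/WT fit had 4 residual degrees of freedom, and signals near background limit Cdk6 at all times and Cdkn2c at 4 h.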
